A study of Homo sapiens with 4 samples.

Results

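AP-1 is a transcription factor made of 2 basic leucine zipper proteins, and its subunits are encoded by 8 genes considered here, namely FOS, FOSB, FOSL1 and FOSL2 of the FOS family, JUN, JUNB and JUND of the JUN family, and ATF3, a related protein that pairs with JUN proteins. These genes were chosen by name, and every probe set annotated to one of them was used, which gave 20 probe sets for the 8 genes among 19775 genes with a probe set of their own. Expression was measured on 4 Affymetrix arrays of SKOV3, an established human ovarian carcinoma line, 2 from cells treated with rhSTIP1 and 2 from control cells without it. The name rhSTIP1 was read as the recombinant human form of STIP1, a cochaperone of HSP70 and HSP90 that cells also secrete, and the pathway in the series title, written SAMD1/5 there, was taken to be SMAD1/5. The sources used here give neither the dose nor the time of treatment, and all arrays come from 1 cell line. Nothing in the labels ties the 2 arrays of a group to different cultures, so the p-values reflect the spread between these arrays alone, and that spread may be technical.

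FOS proteins cannot pair with one another and bind DNA as partners of other basic leucine zipper proteins, above all JUN proteins. JUN proteins can also pair among themselves. Several of the genes, above all FOS, FOSB, JUN and JUNB, are immediate-early genes, whose transcripts appear and fade quickly after a growth factor or stress signal reaches the ERK, JNK or p38 kinases. FOSL1 and FOSL2 encode FOS relatives that usually last longer in the cell, and JUND is transcribed more steadily than JUN or JUNB. In carcinoma cells AP-1 is known for driving genes of growth, invasion and inflammation.

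The values are MAS5 signals, linear intensities that summarise the probes of a probe set on 1 array, and each array was scaled by the authors to the same trimmed mean. Median signals of all probe sets were 69.0 on both rhSTIP1 arrays, against 66.0 and 79.2 on the control arrays. The ratio of 3′ to 5′ signal of ACTB, which rises as RNA degrades, was 2.62 on rhSTIP1 array 1 and 8.79 on rhSTIP1 array 2, against 2.74 and 2.45 on the controls. The same ratio of GAPDH was 0.992 and 1.32 with rhSTIP1, against 0.987 and 1.16 in controls, and so did not set rhSTIP1 array 2 as far apart. Of 12 SKOV3 and epithelial markers, ERBB2 had 9641 and 15302 with rhSTIP1 and 10933 and 12799 in controls, PAX8 lay between 6779 and 8190, and KRT7, KRT8, KRT18, KRT19, EPCAM and MUC1 had at least 1202 on every array. MSLN (185 to 323), CLDN4 (174 to 298) and WT1 (37.3 to 118) were dim on all 4 arrays, and CDH1 ran from 299.3 to 2110 with overlapping groups. Summed signals of 8 fibroblast markers were 701 and 559 with rhSTIP1 against 708 and 546 in controls. Those of 8 leukocyte markers were 217 and 328 with rhSTIP1 against 248 and 240 in controls. Those of 6 endothelial markers were 364 and 236 with rhSTIP1 against 240 and 256 in controls, with PECAM1 between 121 and 172 the brightest of them on each array. Of all 22 markers of these other cell types, 6 were bright enough to be tested, COL1A1, COL1A2, DCN, PDGFRA, ITGAM and PECAM1, and none was listed at 0.

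The 8 genes fell into 3 kinds. FOSB, JUNB and FOSL1 were higher on both rhSTIP1 arrays than on either control, and their group means differed by at least 1.5-fold. FOSL2 and JUND were also higher on both, with group means less than 1.5-fold apart. FOS, JUN and ATF3 had arrays that overlapped between the groups. No gene of the 8 passed limma's test after Benjamini-Hochberg adjustment over all genes tested, as 0% of the 12296 genes tested did. In the same test 3 of the 8 had an unadjusted p under 0.05 with a higher level, against 1.04% of all genes tested. FOSB is among these 3, although it was tested only through the group where it was high.

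Promoter sequences are shown for FOSB and JUNB, the members with the smallest p, and for FOS and JUN, the founding members, whose arrays overlapped. Each is the stretch of 250 bases that ends at the base before the gene's start, on the gene's strand, from RefSeq on GRCh38.p14. Of the 8 genes 7 matched an entry. FOSL1 did not, so no motif was searched for it. Capitals mark the motifs that were searched on both strands, namely the AP-1 site TGANTCA, the cyclic AMP response element TGACGTCA and its core TGACG (which the full element contains), the JUN-type site TGACATCA, the CArG box bound by SRF, the SMAD box CAGAC and the GC-rich SMAD site GGCGCC.
FOSB, chr19:45467746-45467995, strand +: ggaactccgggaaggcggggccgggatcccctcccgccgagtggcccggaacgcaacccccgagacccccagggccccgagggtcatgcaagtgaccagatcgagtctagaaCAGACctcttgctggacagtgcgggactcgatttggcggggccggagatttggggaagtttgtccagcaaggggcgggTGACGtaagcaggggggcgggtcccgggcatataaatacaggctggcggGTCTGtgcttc
JUNB, chr19:12791236-12791485, strand +: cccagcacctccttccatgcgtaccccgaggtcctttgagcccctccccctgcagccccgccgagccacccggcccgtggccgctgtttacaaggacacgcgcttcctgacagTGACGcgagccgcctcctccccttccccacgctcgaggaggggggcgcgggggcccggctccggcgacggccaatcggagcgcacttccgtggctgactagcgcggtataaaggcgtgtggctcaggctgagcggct
FOS, chr14:75278578-75278827, strand +: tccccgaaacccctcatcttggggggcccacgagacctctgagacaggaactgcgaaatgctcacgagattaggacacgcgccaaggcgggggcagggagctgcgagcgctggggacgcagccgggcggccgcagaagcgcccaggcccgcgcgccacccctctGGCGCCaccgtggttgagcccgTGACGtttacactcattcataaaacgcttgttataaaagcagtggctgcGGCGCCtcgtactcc
JUN, chr1:58784048-58784297, strand -: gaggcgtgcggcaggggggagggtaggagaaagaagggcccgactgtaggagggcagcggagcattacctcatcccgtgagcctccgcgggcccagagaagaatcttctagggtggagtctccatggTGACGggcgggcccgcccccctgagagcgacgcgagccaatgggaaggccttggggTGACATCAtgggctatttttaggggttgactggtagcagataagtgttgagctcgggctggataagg

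In the FOSB window the core TGACG began 60 bases before the start, and in the FOS window 64 bases before it. The JUNB window held it 137 bases and the JUN window 123 bases before the start. The core was found in 6 of the 7 matched genes, all but ATF3, and in 21.2% of the 35116 promoter windows in the table. FOSB also held the SMAD box at 138 and 11 bases before the start, a short motif that FOSL2 and ATF3 each held once, 75 bases before the start, so that 3 of the 7 matched genes had it, beside 38.0% of all windows. The GC-rich SMAD site occurred in the FOS window 86 and 15 bases before the start, and in 16.4% of all windows. JUN held its own site, TGACATCA, 67 bases before the start, and ATF3 held the same letters 123 bases before 1 of its 2 starts, against 2.37% of all windows. JUND held the full cyclic AMP response element 200 bases before the start, against 1.65% of all windows. None of the matched windows of the 8 genes held TGANTCA or a CArG box, which occurred in 6.57% and 1.16% of all windows. A match of letters is a description, and these windows are short, so a missing match says nothing about sites further away.

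Among the FOS family, FOSB was furthest apart between the groups. FOSB, a FOS relative of immediate-early kinetics, had signals of 444 and 137 on the rhSTIP1 arrays, against 18.6 and 6.12 on the controls. Both rhSTIP1 arrays lay above both controls, and the controls lay below 69.4, the mean signal a gene needed to be tested, so FOSB was tested only through its rhSTIP1 arrays. Its log2 fold change was 3.26 ± 0.59 (SE, n = 2 arrays each, limma on log2(signal + 16)), the second highest among the 12296 genes tested, with an adjusted p of 0.547. The size depends on the pseudocount because the control signals are dim, running from 2.07 with a pseudocount of 64 to 4.39 with a pseudocount of 1. Leaving out rhSTIP1 array 1 gave 2.47 and leaving out rhSTIP1 array 2 gave 4.06.

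**Figure D1:**
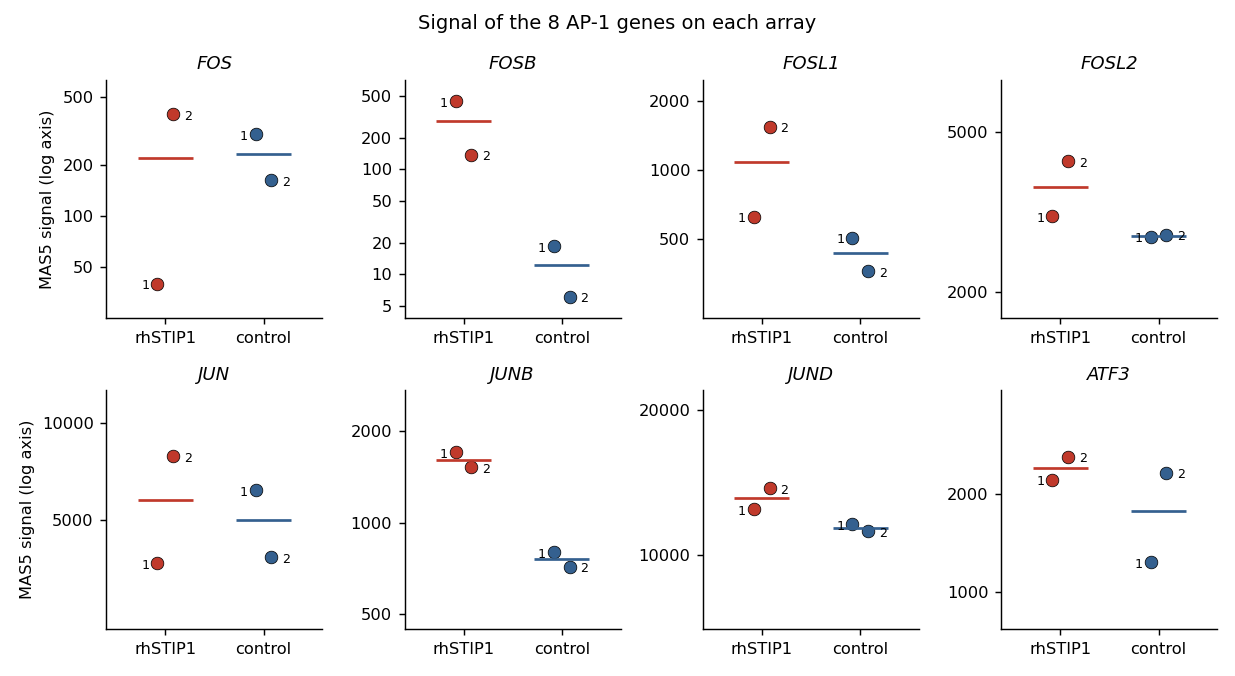
MAS5 signal (log axis, a separate range for each gene) of the brightest probe set of each AP-1 gene on each array, with rhSTIP1 in red, control in blue, array numbers beside the points and horizontal lines at the arithmetic means. FOSB, FOSL1, FOSL2, JUNB and JUND have both rhSTIP1 points above both control points, while FOS and JUN have rhSTIP1 array 2 at the top and rhSTIP1 array 1 at the bottom.

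FOSL1, which encodes FRA1, had signals of 625 and 1548 with rhSTIP1, against 506 and 361 in controls. The arrays did not overlap, and rhSTIP1 array 2 stood well above the other 3. The log2 fold change was 1.18 ± 0.42 or 2.26-fold, with an unadjusted p of 0.0251 and an adjusted p of 0.999 in limma. It was 0.53 when rhSTIP1 array 2, which had the high ACTB ratio, was left out, and 1.82 when rhSTIP1 array 1 was. Whether RNA quality had a part in that difference was not tested.

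FOSL2, which encodes FRA2, was read by 5 probe sets. The brightest had signals of 3083 and 4232 with rhSTIP1, against 2747 and 2775 in controls, a log2 fold change of 0.39 ± 0.24. All 5 probe sets had a fold change above 0, between 0.12 and 0.52, and in 3 of them the groups did not overlap. The probe set 225262_at, nearly as bright as the first, had 2505 and 3476 with rhSTIP1 against 2536 and 2908 in controls, so that its groups overlapped. The fit over all probe sets gave the 218881_s_at probe set, at 159 and 229 with rhSTIP1 against 113 and 147 in controls, the largest change of the 5. The 95% interval of the brightest ran from -0.18 to 0.95 on the log2 scale.

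FOS itself had no common direction on the rhSTIP1 arrays. FOS, the immediate-early partner of JUN, had signals of 39.9 and 394 with rhSTIP1, against 301 and 162 in controls. The 2 rhSTIP1 arrays enclosed both controls, array 1 being the lowest of the 4 and array 2 the highest. The log2 fold change was -0.65 ± 0.82 with an interval from -2.57 to 1.27. It became 0.79 without rhSTIP1 array 1 and -2.09 without rhSTIP1 array 2, so its sign rested on which rhSTIP1 array was kept. The rhSTIP1 arrays differed by 2.88 for FOS on the log2 scale, more than for 99.96% of the genes tested, where the median difference was 0.30. The signal of 39.9 lay below 69.4 and, without detection calls, could not be told from background, so the size of this difference is uncertain.

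FOSB and FOS therefore stood in opposite order within the treated cells. FOSB was 3.24 times as bright on rhSTIP1 array 1 as on array 2, and FOS was 9.88 times as bright on array 2 as on array 1. The FOS ratio rests on a dim signal of 39.9 on rhSTIP1 array 1, so its size is uncertain. In the controls FOS was 1.86 times as bright on array 1 as on array 2, and the control signals of FOSB were too dim to be ordered. Each was read by a single probe set, so the order could not be checked on another one.

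In the JUN family, JUNB had the highest fold change. JUNB, an immediate-early gene that ligands of the TGF-beta family are also known to induce, had signals of 1704 and 1522 with rhSTIP1, against 799 and 714 in controls. The arrays of each group lay close together and the groups were far apart. The log2 fold change was 1.08 ± 0.23 or 2.11-fold, with an interval from 0.53 to 1.62, an unadjusted p of 0.00206 and an adjusted p of 0.702 in limma. It lay between 1.00 and 1.16 with each array left out in turn. JUNB ranked number 34 of the 12296 genes tested by p, and FOSB number 15.

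JUN, the founding subunit and a substrate of JNK, had signals of 3673 and 7889 with rhSTIP1, against 6188 and 3828 in controls. As for FOS, rhSTIP1 array 2 was the highest and rhSTIP1 array 1 the lowest. The log2 fold change was 0.15 ± 0.39, with 0.69 without rhSTIP1 array 1 and -0.40 without rhSTIP1 array 2, and it was -0.20 without control array 2. The 4 probe sets of JUN had fold changes between -0.05 and 0.32 and overlapping arrays in all 4. The second brightest, 201466_s_at, had 1464 and 4970 with rhSTIP1, against 2741 and 1705 in controls. In 3 of the 4 probe sets rhSTIP1 array 2 was the highest and rhSTIP1 array 1 the lowest, and in 201465_s_at, at 252 and 335 with rhSTIP1 against 360 and 195 in controls, the extremes were the controls.

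JUND differed little between arrays. The 203752_s_at probe set of JUND, by far its brightest, had signals of 12445 and 13759 with rhSTIP1, against 11568 and 11198 in controls. The arrays did not overlap, but the log2 fold change was only 0.20 ± 0.17, and the groups overlapped under quantile normalization, where it was 0.11. The other 3 probe sets of JUND overlapped between groups. Of these 203751_x_at had 837 and 578 with rhSTIP1 against 735 and 620 in controls, and 229117_s_at had a signal of at most 37.5.

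**Figure D2:**
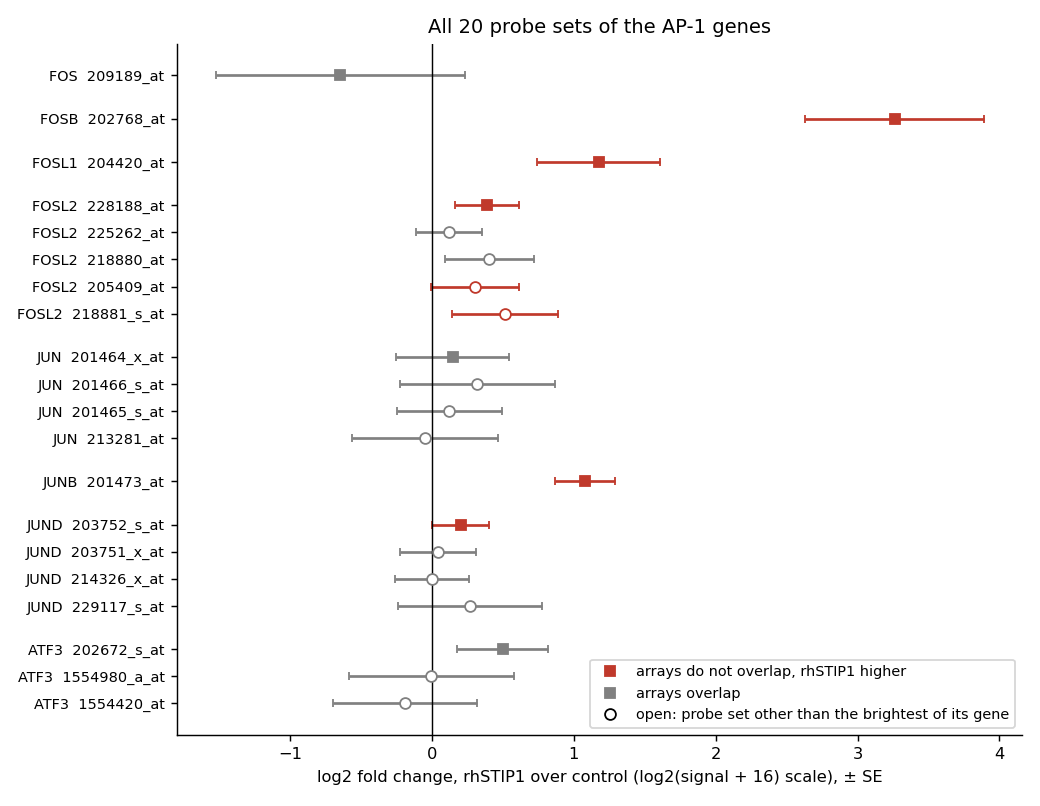
Log2 fold change, rhSTIP1 over control, with its standard error from limma fitted over all 54613 probe sets other than controls, for each of the 20 probe sets of the AP-1 genes, with red where the arrays of the groups do not overlap and open symbols for probe sets that are not the brightest of their gene. The 7 red probe sets lie to the right of 0, FOSB at 3.26, and the 4 probe sets of JUN lie around 0.

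ATF3, a stress-induced partner of JUN proteins that often acts as a repressor, had signals of 2204 and 2591 with rhSTIP1, against 1230.0 and 2316 in controls. Control array 2 lay between the rhSTIP1 arrays, and control array 1 was low. The log2 fold change of 0.50 ± 0.33 was 0.04 without control array 1 and 0.95 without control array 2. The other probe sets of ATF3 were dimmer and overlapped between groups, 1554980_a_at with 617 and 154 with rhSTIP1 against 304 and 323 in controls, and 1554420_at with 50.8 and 78.0 with rhSTIP1 against 50.4 and 107 in controls. With the mean of the 3 probe sets the fold change of ATF3 was 0.10.

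Counted over genes, 5 of the 8 had both rhSTIP1 arrays above both controls, where 14.0% of all genes tested did, and 0 had both below, where 14.9% did. At a difference of at least 1.5-fold there were 3, FOSB, FOSL1 and JUNB, against 1.90% of all genes tested, and 0 lower, against 3.79%. The median log2 fold change of the 8 genes was 0.44, beside 0.02 over all genes tested. FOSB is counted here although it was tested only through the group where it was high. Counted over probe sets, 7 of 20 were higher on both rhSTIP1 arrays and 0 lower, beside 13.4% of all 54613 probe sets that were higher, and probe sets of 1 gene share its transcripts. The shares given here were counted with all 4 arrays. With an array left out fewer values have to be apart, so these shares do not apply to counts made then. For each of the 5 genes the exact two-sided permutation test over the arrays gave 0.333, the smallest p this design allows.

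**Figure D3:**
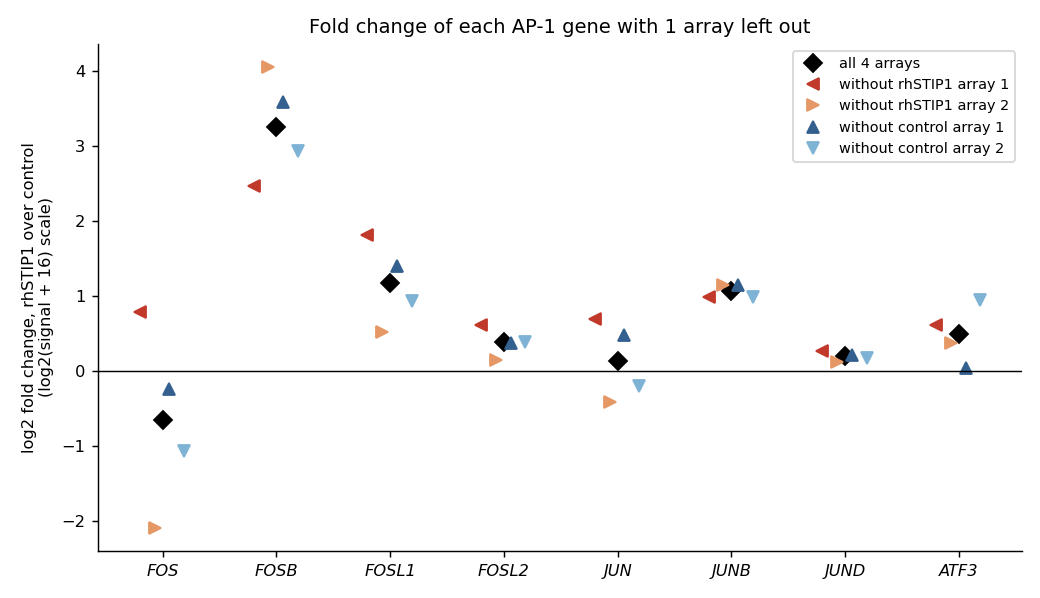
Log2 fold change, rhSTIP1 over control, of each AP-1 gene with all 4 arrays (black diamonds) and with 1 array left out (triangles). JUNB stays between 1.00 and 1.16 and FOSB above 2, FOS runs from -2.09 to 0.79 and JUN from -0.40 to 0.69.

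The members also differed from one another in how far the arrays of 1 group lay apart. Between the rhSTIP1 arrays the log2 difference of FOS, FOSB, FOSL1 and JUN exceeded that of at least 96.6% of the genes tested, and JUNB with 0.16, JUND with 0.14 and ATF3 with 0.23 were below the median difference. FOS, FOSL1, FOSL2, JUN, JUND and ATF3 were higher on rhSTIP1 array 2 than on array 1, and FOSB and JUNB were lower. Between the controls ATF3 differed most of the 8, by 0.90. Array 2 of rhSTIP1 had the high ACTB ratio and no such GAPDH ratio, and the part of RNA quality in these differences was not tested.

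The genes most like FOSB in profile, by the root mean square difference of mean-centred log2 values over the 4 arrays, were ID3 (0.69), HES1 (0.75) and ANHX (0.82). ID3, an inhibitor of basic helix-loop-helix factors and a target of BMP signalling, had 12430.5 and 4643 with rhSTIP1, against 499.6 and 189 in controls, and so was also highest on rhSTIP1 array 1. ANHX, at 184 and 158 with rhSTIP1, had the same order of these arrays. HES1, at 5917 and 6655 with rhSTIP1 against 1305 and 993 in controls, had the other order. Those most like JUNB were INHBA (0.024), which encodes the activin beta A subunit, FDXACB1 (0.088) and CRYM (0.12). INHBA had 136 and 119 with rhSTIP1, against 54.4 and 50.02 in controls, and all 3 of these genes were dim. Their control signals lay below 69.4, the mean signal a gene needed to be tested, and so did those of ANHX. Like FOSB, INHBA, FDXACB1, CRYM and ANHX were therefore tested only through their rhSTIP1 arrays.

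Genes known as targets of AP-1 were divided evenly between higher and lower. Of 35 listed, 26 were tested, 13 with a fold change above 0 and 13 below, with a median log2 fold change of -0.02 beside 0.02 over all genes tested. None passed the adjusted test in limma, while at an unadjusted p under 0.05 there were 4 higher and 3 lower, beside 1.04% of all genes tested that were higher and 2.64% that were lower by that rule. HMOX1, which degrades heme, had 855 and 1329 with rhSTIP1, against 135 and 361 in controls, a log2 fold change of 2.18 ± 0.44. LIF, a cytokine of the IL6 family, had 1269 and 3086 with rhSTIP1, against 952 and 786 in controls. DUSP1, a phosphatase that switches off MAP kinases, had 3705 and 7040.4 with rhSTIP1, against 2530 and 3104 in controls. PLAUR, the urokinase receptor, had 468 and 518 with rhSTIP1, against 314 and 296 in controls. In these 4 the groups did not overlap and the difference was at least 1.5-fold, a rule that 1.90% of all genes tested met as higher. In EREG and TNC, chosen after their values were seen, both rhSTIP1 arrays lay below both controls. These 2 met the same 1.5-fold rule as lower, which 3.79% of all genes tested did. TNC had 76.9 and 44.9 with rhSTIP1, against 114 and 149 in controls. The mean of its rhSTIP1 arrays lay below 69.4, the mean signal a gene needed to be tested. TNC is thus counted as lower although it was tested only through its controls, the group where it was high. EREG, an EGF receptor ligand, had 460.3 and 706 with rhSTIP1, against 858 and 1152 in controls. The classical AP-1 target MMP1, a collagenase also chosen after its values were seen, had 2709 and 2628 with rhSTIP1, against 4877 and 2756 in controls.

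Among other basic leucine zipper proteins, several of which can pair with FOS or JUN relatives, the genes with the smallest p were lower with rhSTIP1. Of 28 listed, 21 were tested, with 10 above 0, 11 below and a median of -0.06, and 0 were higher by 1.5-fold without overlap while 2 were lower, a rule that 3.79% of all genes tested met as lower. These were DDIT3, the stress factor also called CHOP, at 2865 and 3962 with rhSTIP1 against 7120.3 and 11024 in controls, and NFIL3, a repressor, at 1794 and 2273 with rhSTIP1 against 3354 and 5804 in controls. ATF4, the factor of the amino acid response, had 21496 and 20396 with rhSTIP1, against 27601 and 27632 in controls, a log2 fold change of -0.40 ± 0.14 with an unadjusted p of 0.0249 and an adjusted p of 0.999 in limma. CREB1, which binds the cyclic AMP response element, had 1449 and 2058 with rhSTIP1, against 2610.5 and 2318 in controls.

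Of 32 kinases and factors upstream of FOS and JUN, 26 were tested, with 14 above 0, 12 below and a median of 0.08, and 0 had an unadjusted p under 0.05, close to the 3.68% of all genes tested that did. MRTFA, a coactivator of SRF, had 281 and 407 with rhSTIP1, against 483 and 508 in controls. ELK1, which binds with SRF at the FOS promoter, had 1017 and 961 with rhSTIP1, against 659 and 928 in controls. The acetyltransferase EP300 had a log2 fold change of -0.30 ± 0.23 and the stress kinase MAP3K5, also called ASK1, of -0.32 ± 0.25. These are transcript levels, and the kinases act through phosphorylation, which the arrays do not measure.

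Of 12 genes that act on the turnover or modification of AP-1 proteins, 11 were tested, with 6 above 0, 5 below and a median of 0.02. By 1.5-fold without overlap 0 were higher, and 2 were lower, SENP1 and FBXW8. Of all genes tested, 1.90% met that rule as higher and 3.79% as lower. At an unadjusted p under 0.05 in limma 1 was lower, SENP1, beside 2.64% of all genes tested. SENP1, a SUMO protease, had 338 and 471 with rhSTIP1, against 614 and 753 in controls, with an unadjusted p of 0.0278 and an adjusted p of 0.999 in limma. FBXW8, an F-box protein, had 52.9 and 107 with rhSTIP1, against 131 and 176 in controls. Its signal of 52.9 lay below 69.4 and, without detection calls, could not be told from background. FBXW7, the F-box protein that marks JUN for degradation, had a log2 fold change of 0.27 ± 0.24, and USP28, a deubiquitinase that counters it, 0.25 ± 0.26 with overlapping arrays.

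**Figure D4:**
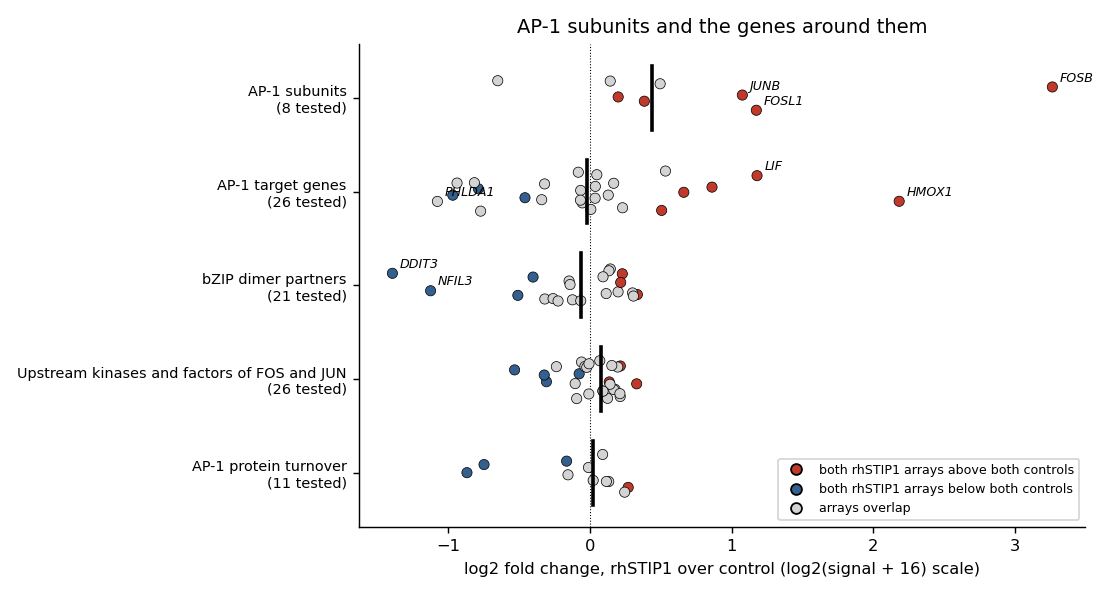
Log2 fold change, rhSTIP1 over control, of the 8 AP-1 genes and of the tested genes of 4 lists around them, each point a gene with names given from 1 log2 unit on and black bars at the medians; vertical position within a row has no meaning. The AP-1 genes have a median of 0.44 and the 4 lists medians between -0.06 and 0.08.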

How the data were processed

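RNA from 4 samples, 2 with rhSTIP1 and 2 controls by their titles, was measured on Affymetrix arrays. Per the submitters' processing notes, the authors used MAS5 and Affymetrix Expression Console 1.1, and the deposited values are linear signal intensities. No log had been taken, and in the deposited table the mean after trimming 2% at each end was 500.1 on every array. The table has no detection calls, so dim signals could not be told from background, and the genome build is not given in the sources used here.

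Probe sets were named from the platform annotation, updated through gene identifiers (41037 of 41091 with exactly 1 symbol were found). Of 54675 probe sets 62 were controls, 1801 had several symbols and 11721 none. A probe set naming a member beside another gene was not found. The probe set with the highest mean stood for its gene, and 12296 of 19775 genes were tested, those whose mean reached 69.4, the median of all non-control probe sets. All 8 AP-1 genes were kept. The comparison used limma 3.58.1 in R 4.3.3 (lmFit, eBayes with an intensity trend) on log2(signal + 16), and the two-sided p-values were adjusted by Benjamini-Hochberg over all genes tested. Fold changes are on that scale and understate dim genes. A second fit took all 54613 probe sets without a filter. The residual degrees of freedom were 2 per gene and the prior ones 5.56, and the number of arrays limits every value. The steps were tested on simulated data.

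The members, the gene lists and the tests were chosen with earlier results of these data known. Named genes are all members, the 4 genes of each list with the smallest p, and the 3 nearest profiles of the 2 members with the smallest p. Alternatives covered pseudocount, filter, scaling, probe set choice, replicate number as a block, eBayes settings, the separation threshold and leaving out each array.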

Additional observations from a re-analysis of the deposited data

How the results depend on the processing

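Leaving out arrays decided the sign of FOS (-2.09 to 0.79) and JUN (-0.40 to 0.69). The fold changes of FOSB (2.47 to 4.06), FOSL1 (0.53 to 1.82), FOSL2 (0.16 to 0.61), JUNB (1.00 to 1.16), JUND (0.13 to 0.27) and ATF3 (0.04 to 0.95) stayed above 0. The number of members higher by at least 1.5-fold without overlap, 3 with all arrays, ran from 2 to 7 with an array left out (7 without rhSTIP1 array 1), when fewer values have to be apart, and the number lower from 0 to 1 (FOS, without rhSTIP1 array 2). With all arrays the number higher was 5 at any size of difference. The shares over all genes were counted with all 4 arrays and do not apply with an array left out. FOSB and FOS fell below a filter at the 70th percentile. The medians of the 4 lists were near 0 and took either sign, that of the AP-1 targets falling to -0.26 without control array 2. Pseudocounts of 1 and 64, median centring, quantile normalization and the mean of a gene's probe sets left the direction of all 8 members as it was, and 7 probe sets higher without overlap became 6 to 8.

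Over all genes limma called 0 genes at an adjusted p of 0.05 and 452 at an unadjusted p under 0.05. It called 1 with a filter at the 70th percentile, 2 with robust eBayes and 0 to 6 with an array left out, where the lone array of a group is assumed to vary like the arrays of the other. With the replicate block it called 247 of 12296. In that fit FOSB (3.26, adjusted p = 2.8e-04), JUNB (1.08, adjusted p = 0.00478) and FOSL1 (1.18, adjusted p = 0.0414) passed, while under the other settings the smallest adjusted p was 0.111 for FOSB, 0.452 for JUNB and 0.870 for FOSL1. Same-numbered arrays share a replicate number, and their sample records are numbered consecutively, with a wide gap between the 2 pairs. No label says that either marks a common culture or day. Same-numbered arrays deviated together from their group means (r = 0.36 over the genes tested), and 2 pairs with 1 residual degree of freedom are too few to settle the pairing.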

Other observations

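The cytokine genes IL6 and CXCL8, both in the list of AP-1 targets, were lowest on rhSTIP1 array 1, as FOS and JUN were. IL6 had 335 and 2087 with rhSTIP1, against 1704 and 1231 in controls, and CXCL8 had 2486 and 12774 with rhSTIP1, against 11097 and 10513 in controls. The groups overlapped for both genes, and rhSTIP1 array 2 was the highest of the 4 for both. CCND1, which encodes cyclin D1, also had rhSTIP1 array 2 highest and array 1 lowest, at 2048 and 5210.1 with rhSTIP1 against 2179 and 2326 in controls. Of the 26 AP-1 targets tested, HBEGF also had this order, at 185 and 407 with rhSTIP1 against 220 and 246 in controls. AXL had the reverse, at 5002 and 2832 with rhSTIP1 against 4680 and 3385 in controls. The rest of the tested targets had neither order. All genes named here were chosen after their values were seen, and no test was made of the likeness.

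The matrix metalloproteinase gene MMP10 had 543 and 392.1 with rhSTIP1, against 1275 and 529 in controls, with overlapping arrays, and MMP9 had 172 and 173 with rhSTIP1, against 159 and 184 in controls. PHLDA1, an AP-1 target in the list, had 5067 and 13386 with rhSTIP1, against 23142 and 13015 in controls, also with overlap. These 3 were also chosen after their values were seen. No sample group held the 4 arrays needed to look for outlying samples, so no result was singled out on that ground.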
